A study of Mus musculus with 8 samples.

Results

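Expression of 9 genes of platelets and their parent cells, the megakaryocytes, was examined in mouse liver after oxaliplatin. The genes were Itgb3, Itga2b, Pf4, Ppbp, Gp1bb, Gp9, Gp6, Treml1 and Selp. They were selected by name, with earlier results of these data known. Every probe whose gene name or transcript accession led to one of these symbols was taken. This gave 19 probes among the 21252 named genes of the array. Each gene had 2 probes, except Selp with 3. For 7 of the 9 genes at least 1 probe was well above background on 4 or more of the 8 arrays, the condition for testing. Gp1bb and Gp6 did not reach it and are described by their values, with a test only where the filter was dropped.

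The livers came from 8 male mice, 1 Agilent single-colour (Cy3) array per mouse. The 4 control mice are labelled normal and the 4 others received oxaliplatin, a platinum chemotherapy drug, into the peritoneum every week over 6 weeks. The submitters call the treated mice a model of sinusoidal obstruction syndrome, in which the lining of the liver's small vessels is damaged, and describe the mice as biological replicates. Strain, age, dose and any vehicle are not given in the sources used here.

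Platelets are shed into the blood by megakaryocytes and carry RNA left over from them. On their surface, the integrin made of the Itga2b and Itgb3 products binds fibrinogen and links platelets to each other, a complex that includes the Gp1bb and Gp9 products holds von Willebrand factor, and the Gp6 product senses collagen. Their alpha granules store the chemokines Pf4 and Ppbp and carry the Treml1 and Selp products in their membrane, from where these reach the surface on activation. Several of these genes are also used elsewhere, Selp and Itgb3 for example by vessel lining cells.

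All levels are log2 signals relative to the 75th percentile of the same array, so that 0 is the 75th percentile itself, and differences are oxaliplatin minus control. Between 27.2% and 40.9% of probes were well above background on an array, the most on control 1 and the least on oxaliplatin 2. All control arrays lay on 1 slide and all oxaliplatin arrays on another, so slide and group cannot be told apart in any value below. All 11 hepatocyte markers passed the filter. So did all 15 endothelial and all 12 macrophage markers, and passing alone does not name the tissue. The hepatocyte marker Alb averaged 10.66 in controls and 11.22 after oxaliplatin. The precision rests on 4 arrays per group.

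Itgb3, Pf4 and Itga2b were lower in the oxaliplatin livers, by 4.35-fold, 3.45-fold and 2.78-fold. These are 3 of the 7 tested genes at an adjusted p under 0.05 in limma, and no tested member was higher. Across all 13913 genes tested, 11.6% were called lower and 6.99% higher. The members were chosen with earlier results of these data known, so these shares stand beside them as description only. Ppbp, Treml1, Gp9 and Selp did not pass. The median difference of the 7 tested genes was -1.78, beside -0.09 for all genes tested. Treml1 met the filter through its 4 control arrays alone and Itga2b through 4 control and 2 oxaliplatin arrays. Such entry favours a lower reading, and both genes are in this median. The groups did not overlap for the 3 called genes, a pattern seen with oxaliplatin lower in 18.4% and with oxaliplatin higher in 9.26% of the genes with a value on every array. No tested member had all oxaliplatin arrays above the controls. In whole liver, fewer cells or platelets and less RNA in each of them cannot be told apart.

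**Figure D1:**
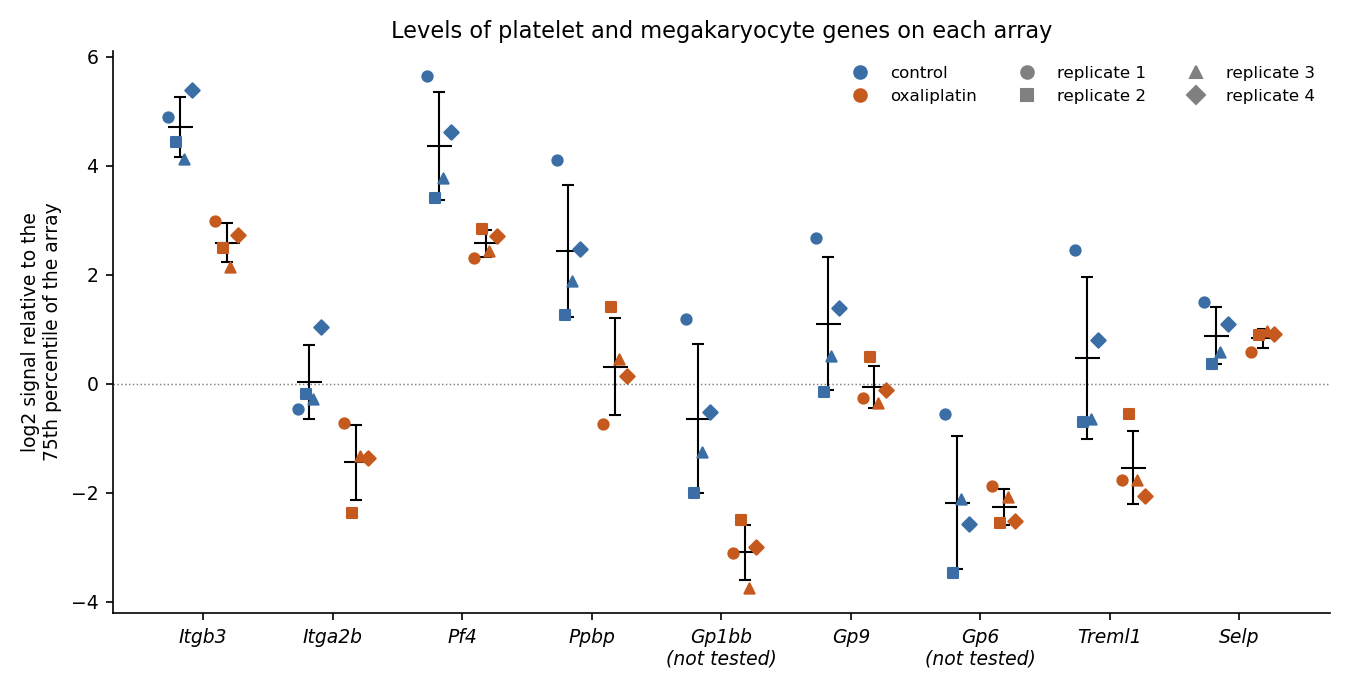
Log2 signal relative to the 75th percentile of the array (vertical axis) for the 9 genes, with 1 point per array, the shape giving the replicate number, and bars for the mean and SD of 4 arrays. Each gene is shown by the probe used for its test, or by its brighter probe where it was not tested (Gp1bb, Gp6). The oxaliplatin arrays lie below all control arrays for Itgb3, Itga2b, Pf4 and Gp1bb, and overlap them for the other genes.

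Itgb3 encodes the beta subunit of the fibrinogen receptor. Its tested probe read 4.89, 4.42, 4.12 and 5.39 in controls 1 to 4. In oxaliplatin livers 1 to 4 it read 2.98, 2.49, 2.15 and 2.73. Every oxaliplatin value lay more than 1 log2 unit below the lowest control value. The difference was -2.12 ± 0.29 (SE, 4 arrays per group), with an adjusted p of 0.00504 in limma. The second Itgb3 probe, at chr11:104531672-104531731 (mm9, plus strand), gave -2.14 ± 0.28 with an adjusted p of 0.00407 when every probe was tested in limma as its own feature. The 2 probes are nearly the same oligonucleotide, with 53 of 60 bases in common, so the second adds little independent evidence. Itgb3 was called lower under all 23 alternative settings, at differences from -2.75 to -1.89.

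Itga2b encodes the alpha subunit of the same receptor, made in megakaryocytes and used as a marker of the lineage. Its tested probe read -0.46, -0.19, -0.28 and 1.04 in controls 1 to 4, all well above background. The oxaliplatin arrays read -0.72, -2.38, -1.32 and -1.37, and only 2 of these 4 were well above background. All oxaliplatin values lay below the control values, oxaliplatin 1 closest to them. The difference was -1.48 ± 0.42, with an adjusted p of 0.0429 in limma. The call was lost when any array other than oxaliplatin 1 was left out, at adjusted p values from 0.0501 to 0.0892 in limma. With normexp background correction the difference shrank to -0.50 (adjusted p 0.0815).

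The 2 Itga2b probes share no stretch of 10 or more bases, so unlike those of Itgb3 they read separate parts of the transcript. They are shown because only the second was bright enough to be tested. The first maps to chr11:102319453-102319661 (mm9, minus strand), where its 60 bases are spread over 209 bases of genome, as for a probe across a splice junction. The files give no exon for either.
Itga2b catalogue probe: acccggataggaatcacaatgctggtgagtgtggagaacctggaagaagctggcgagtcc
Itga2b custom probe, tested: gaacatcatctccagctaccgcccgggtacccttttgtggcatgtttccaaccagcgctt
The catalogue probe read -0.09, -2.53, -0.98 and -1.37 in controls 1 to 4, of which 3 were well above background. On the oxaliplatin arrays it read -3.10, -2.05, -3.89 and -2.42, with none well above background. Its mean was 1.62 log2 units lower after oxaliplatin, and here the groups overlapped, because control 2 read below oxaliplatin 2 and 4.

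Pf4, or platelet factor 4, is a heparin-binding chemokine of the alpha granules. Its tested probe read 5.64, 3.40, 3.78 and 4.61 in controls 1 to 4. On the oxaliplatin arrays it read 2.30, 2.84, 2.43 and 2.71. The 4 oxaliplatin livers lay close together, with an SD of 0.25, while the controls spread with an SD of 0.99 and control 1 was highest. The difference was -1.78 ± 0.44, with an adjusted p of 0.0287 in limma. The second probe gave -1.88 ± 0.41 with an adjusted p of 0.0192 as its own feature in limma. It shares 15 bases with the first, GACTCCTGGAATCTT, where the 2 oligonucleotides meet end to end. The catalogue probe lies at chr5:91202275-91202334 (mm9, plus strand). The call was lost without control 4 (adjusted p 0.0553 in limma) and without oxaliplatin 1, 2, 3 or 4, at 0.0562 to 0.0745.

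Ppbp, or pro-platelet basic protein, is cleaved into chemokines that attract neutrophils. Its gene neighbours Pf4, and the start sites of the pair lie 3917 bases apart on build GRCm38.p6. Its tested probe read 4.10, 1.27, 1.89 and 2.47 in controls 1 to 4. After oxaliplatin it read -0.75, 1.40, 0.45 and 0.14. Only oxaliplatin 2 reached into the control range, above control 2. The difference of -2.12 ± 0.64 was the same size as that of Itgb3 with a larger SE, and its adjusted p of 0.0525 in limma missed the threshold. It passed without control 2 (difference -2.51, adjusted p 0.0376 in limma) and under 4 other alternatives of 23. The other probe, which shares 51 bases with it, lies at chr5:91198970-91199029 (mm9, plus strand) and gave -1.83 ± 0.69 with an adjusted p of 0.0968 as its own feature in limma.

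**Figure D2:**
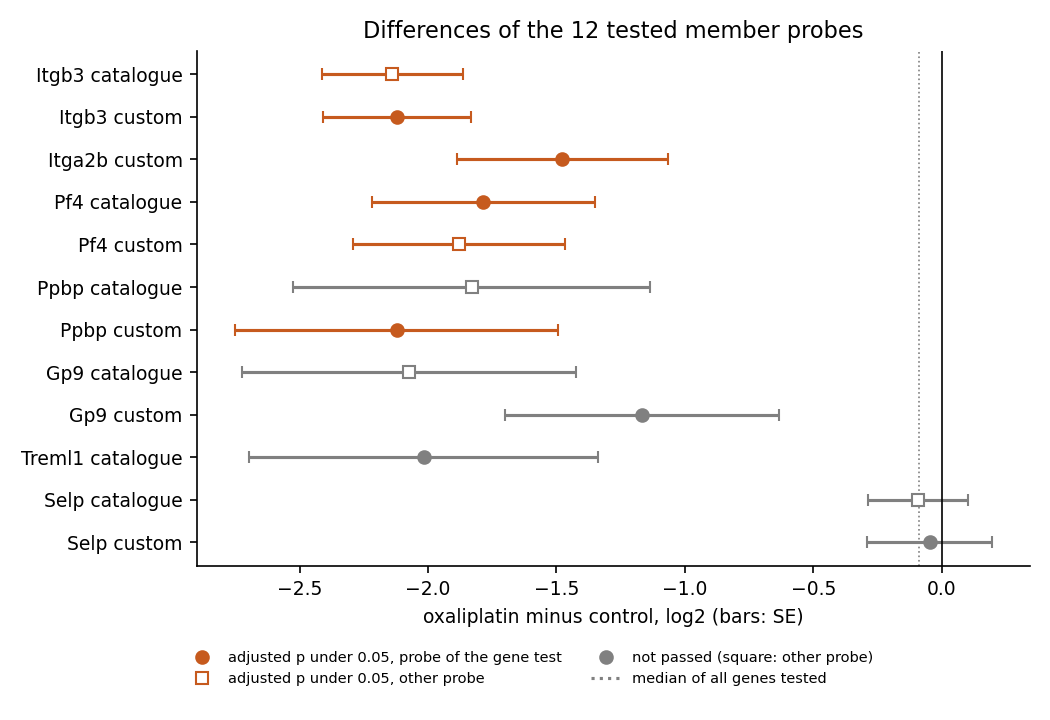
Difference between oxaliplatin and control (horizontal axis, log2, bars for the SE from limma) for the 12 member probes bright enough to be tested, each as its own feature. Coloured points have an adjusted p under 0.05, circles are the probes used for the gene test and open squares the others. Of the 12 probes 6 are coloured, those of Itgb3, Itga2b and Pf4 and 1 of Ppbp, and the 2 Selp probes sit near 0.

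Counted over probes, 6 of the 12 tested member probes passed in limma, all of them lower. Over all 54636 probes tested, 11.0% were called lower and 7.42% higher. Means were lower after oxaliplatin for 18 of the 19 probes, tested or not, and for 29.5% of all 149667 probes with a value on every array, most of them dim. The exception was a Selp probe that was not well above background on any array. Over the 54636 tested probes, which are brighter, the median difference was -0.09, so lower means were the commoner direction there. The oxaliplatin arrays lay below all controls for 7 of the 19 probes, against 6.98% of all probes, while 19.3% of all probes lay above. Among the filtered genes, which are brighter, the share below was 18.4%. For Itgb3, Pf4 and Gp1bb the pattern held for both probes of the gene, those of Itgb3 being nearly the same oligonucleotide. The Gp1bb part of this rests on oxaliplatin signals that were not well above background.

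Gp1bb and Gp9 encode 2 parts of the receptor that catches von Willebrand factor under fast flow. Gp9 read 2.66, -0.15, 0.51 and 1.38 in controls 1 to 4. After oxaliplatin it read -0.27, 0.49, -0.37 and -0.11. Controls 2 and 3 were within or just above the oxaliplatin range, and controls 1 and 4 lay clear of it. The difference was -1.17 ± 0.54, with an adjusted p of 0.160 in limma, and without control 1 it was -0.65. The second Gp9 probe gave -2.07 ± 0.65 (adjusted p 0.0563 as its own feature in limma) and was well above background on 4 control arrays and 1 oxaliplatin array. These 2 probes share only the 13 bases TCTCACCTCCACA. The catalogue probe maps to chr6:87729650-87729709 (mm9, plus strand).

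Gp1bb was dim throughout. Its brighter probe read 1.19, -2.0, -1.25 and -0.51 in controls 1 to 4, and 3 of these were well above background. Oxaliplatin livers read -3.12, -2.51, -3.74 and -3.00, none of them well above background. All 4 oxaliplatin values lay below the lowest control. With the oxaliplatin level bounded by the lowest signal well above background on each array, the control mean was at least 1.45-fold higher. The bound averaged -1.18. Controls 2 and 3 read below it, so the fold value rests on controls 1 and 4, control 1 the higher. The measured means were -0.64 and -3.09, the second from signals not well above background. Without the filter the difference was -2.45 with an adjusted p of 0.0332 in limma, which rests on those same oxaliplatin signals. The second probe, on chr16:18621107-18621166 (mm9, minus strand), is shown for its base composition, 80% G and C against 45% in the brighter probe.
Gp1bb catalogue probe: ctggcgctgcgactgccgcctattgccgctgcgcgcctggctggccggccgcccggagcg
It was well above background on 2 control arrays and no oxaliplatin array, and its groups did not overlap either, at -1.94 to -0.65 in controls and -3.93 to -2.66 after oxaliplatin.

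Gp6 encodes the collagen receptor of platelets, which signals through the Fc receptor gamma chain. It was well above background on 1 of the 8 arrays, control 1, with both probes. The brighter probe read -0.57 on that array and between -3.48 and -2.12 on the other controls. The oxaliplatin values were -2.56 to -1.88. No difference was detectable at this signal, and without the filter it was -0.07 with an adjusted p of 0.935 in limma. The probes differ by a shift of 1 base, sharing 59 of 60, so they count as a single reading. The catalogue probe lies at chr7:4320355-4320414 (mm9, minus strand).

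Treml1 encodes a receptor stored in alpha granules and found in platelets and megakaryocytes. Its tested probe, at chr17:48506365-48506424 (mm9, plus strand), read 2.44, -0.71, -0.64 and 0.80 in controls 1 to 4, all well above background. The oxaliplatin arrays read -1.78, -0.57, -1.78 and -2.05, and none was well above background. Oxaliplatin 2 overlapped with controls 2 and 3. The control mean was at least 3.15-fold above the bound for the oxaliplatin arrays. This fold leans on control 1, which lay 1.97 above the control mean. Controls 2 and 3 read under the oxaliplatin 2 limit of -0.45. Without control 1 the measured difference was -1.36. The measured difference of -2.02 ± 0.69 had an adjusted p of 0.0755 in limma and did not pass. The other probe shares no stretch of 10 bases with it and differed by -0.89, with 2 control arrays and 1 oxaliplatin array well above background.

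Selp encodes P-selectin, which sits in alpha granules and also in the storage granules of endothelial cells. Its tested probe read 1.50, 0.35, 0.58 and 1.09 in controls 1 to 4. The oxaliplatin arrays read 0.58, 0.88, 0.96 and 0.91, inside the control range. The difference was -0.05 ± 0.24 with an adjusted p of 0.910 in limma, and its sign turned under 7 of 23 alternatives. It passed as lower under 1 of them, centring on the median of all probes, at -0.68. A second probe gave -0.09 ± 0.20. The third lies at chr1:166071558-166071617 (mm9, plus strand), upstream of the second at chr1:166079660-166079719, and was not well above background on any array although the other 2 were on all 8. Its bases follow, since on this array it gives no reading of the gene.
Selp internal probe: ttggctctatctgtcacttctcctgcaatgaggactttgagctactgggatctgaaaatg
Selp was thus the only tested member whose difference was under 1 log2 unit, and whether it differed from the other members was not tested.

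The members also differed in which control liver was high. Control 1 was highest for Pf4, Ppbp, Gp9, Treml1 and Selp, 5 of the 7 tested genes, while control 4 was highest for Itgb3 and Itga2b. Over all genes with a value on every array, control 1 was the highest control in 13.6% and control 4 in 30.0%. In control 1, Treml1 lay 1.97 above its control mean, Ppbp 1.67, Gp9 1.56, Pf4 1.28 and Selp 0.62. Itgb3 lay 0.19 above and Itga2b 0.49 below its control mean there. After oxaliplatin the array that stood up was oxaliplatin 2, at 1.09 above the group mean for Ppbp and 0.98 for Treml1. Itga2b was 0.93 below its mean on it. The lowest signal well above background on oxaliplatin 2 was -0.45, the highest such limit of the arrays. Treml1 (-0.57) and Itga2b (-2.38) read under it, so their deviations there are not measured levels.

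**Figure D3:**
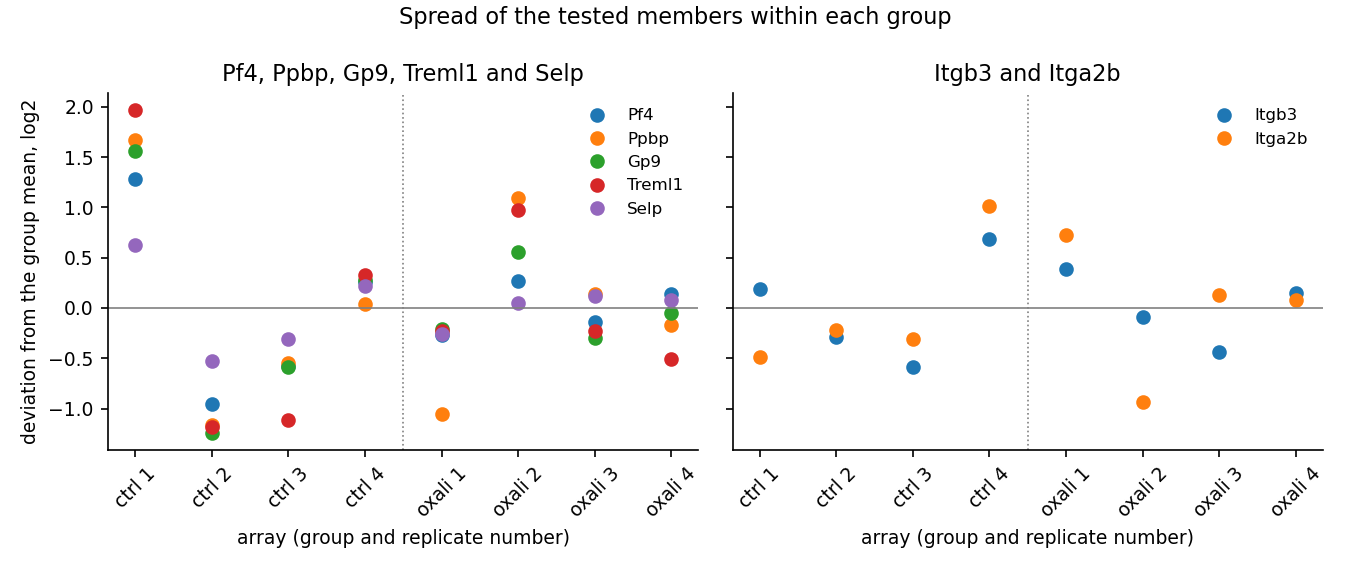
Deviation of each tested gene from its own group mean (vertical axis, log2) on the 8 arrays (horizontal axis), with the 2 integrin genes on the right and the 5 other tested genes on the left. The 5 genes on the left are all highest in control 1 and all below their mean in controls 2 and 3. Itgb3 and Itga2b are highest in control 4.

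With each group's mean removed, the 5 genes other than the integrin subunits correlated with each other over the 8 arrays at r from 0.86 to 0.98 (10 pairs). Itgb3 correlated with these 5 at 0.13 to 0.48 and Itga2b at -0.49 to -0.06. Itgb3 and Itga2b correlated with each other at 0.61. These coefficients are descriptions over 8 arrays that share scaling and hybridisation, and no p is given. They come from the same deviations that set the 5 genes apart by their highest control, so they add no separate support. They include oxaliplatin values not well above background, for Treml1 on every oxaliplatin array and for Itga2b on some. Control 1 was also the array with the most probes above background, and its part in these coefficients was not tested. Without control 1, Pf4 kept its call at -1.36 (adjusted p 0.0258 in limma) and Itgb3 kept it at -2.06 (0.0135). Ppbp was then -1.57 and Treml1 -1.36, neither passing.

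Run names were read from the names of the scans, not from the headers. The 2 oxaliplatin arrays with a run name of their own, oxaliplatin 1 and 2, were also those with the highest background limit. Restricting the comparison to the 6 arrays of the shared run name left Itgb3 lower by -2.27 (adjusted p 0.0385 in limma). Pf4 was then -1.78 (0.141), Itga2b -1.38 (0.118), Ppbp -2.14 (0.143) and Treml1 -2.39 (0.164). When run name entered the fit as a term, the adjusted p was 0.0213 for Itgb3, 0.105 for Pf4 and 0.158 for Itga2b. Over all alternatives the adjusted p ranged from 0.000396 to 0.0385 for Itgb3, from 0.00115 to 0.141 for Pf4, from 0.00112 to 0.158 for Itga2b and from 0.00342 to 0.156 for Ppbp. Background correction by normexp, in place of the scanner software's own, brought the median of the 7 members to -0.85. Itgb3 (-1.93) and Pf4 (-1.68) stayed called. Ppbp (-1.49, adjusted p 0.0475 in limma) was newly called and Itga2b (-0.50, 0.0815) lost its call.

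**Figure D4:**
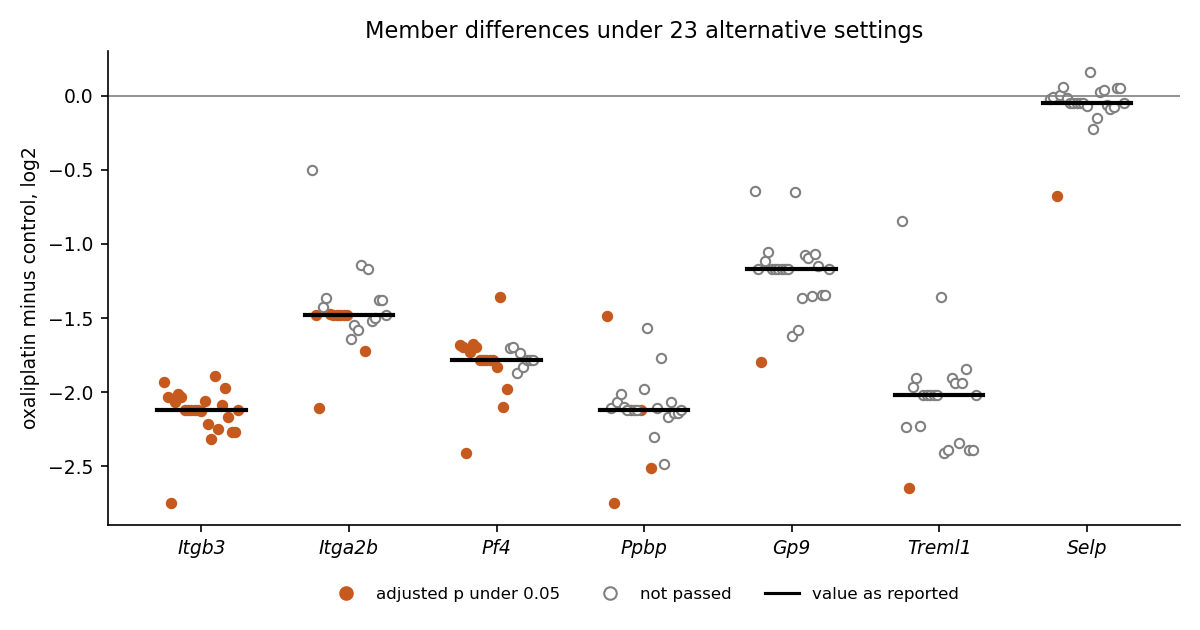
Difference between oxaliplatin and control (vertical axis, log2) for the 7 tested members under 23 alternative settings, 1 point per setting, with filled points for an adjusted p under 0.05 in limma and a line for the value as reported. Itgb3 is filled under every setting, Pf4 under 15 of 23 and Itga2b under 9 of 22. Only Selp crosses 0.

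The promoters of the fibrinogen receptor alpha subunit and of the 2 chemokines are shown because these genes are activated together during megakaryocyte maturation. GATA1, RUNX1 and ETS factors such as FLI1 then act on the lineage. RefSeq promoter sequence (GRCm38.p6), 250 bases before to 50 after the start site, was matched for 8 of the 9 members, all but Itgb3. Capitals mark the ETS words GGAAGT and GGAAGC on either strand.
Itga2b promoter, chr11:102469834-102470133, minus strand: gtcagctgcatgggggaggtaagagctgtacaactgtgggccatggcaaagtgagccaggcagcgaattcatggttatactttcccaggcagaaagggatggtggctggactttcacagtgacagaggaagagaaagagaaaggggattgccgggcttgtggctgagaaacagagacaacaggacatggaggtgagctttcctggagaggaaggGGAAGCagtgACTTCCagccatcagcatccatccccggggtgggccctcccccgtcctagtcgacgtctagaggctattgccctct
Pf4 promoter, chr5:90772185-90772484, plus strand: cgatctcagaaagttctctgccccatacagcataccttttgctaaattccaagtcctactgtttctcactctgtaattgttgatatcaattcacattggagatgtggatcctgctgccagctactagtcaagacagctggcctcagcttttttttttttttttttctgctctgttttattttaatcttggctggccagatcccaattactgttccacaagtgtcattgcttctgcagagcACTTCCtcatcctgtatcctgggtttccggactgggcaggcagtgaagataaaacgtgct
Ppbp promoter, chr5:90768268-90768567, plus strand: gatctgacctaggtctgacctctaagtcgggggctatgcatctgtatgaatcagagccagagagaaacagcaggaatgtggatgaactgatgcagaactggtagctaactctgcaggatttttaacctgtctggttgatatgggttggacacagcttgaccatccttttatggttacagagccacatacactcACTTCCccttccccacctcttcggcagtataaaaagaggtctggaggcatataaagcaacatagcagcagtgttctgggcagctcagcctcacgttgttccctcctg
An ETS word was found in 7 of the 8 member promoters, all except Treml1, and in 43.6% of the 32851 promoters of this length. Itga2b held 2, starting at bases 215 and 225 of the window, Pf4 held 1 at base 241 and Ppbp 1 at base 194. A GATA word (AGATAA or TGATAA, either strand) was present in 2 of 8, Pf4 and Gp6, beside 18.6% of all promoters. A RUNX word (TGTGGT or TGCGGT, either strand) was present in 1 of 8, Gp9, beside 22.4%. None of the ETS, GATA and RUNX matches in these promoters overlapped. These are matches of letters only. The words were found in promoters of members that passed the test and of members that did not, Selp among them.

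Among 16 other platelet receptors and adhesion molecules, 11 were tested, with 2 lower and 1 higher and a median difference of -0.34. Across all genes tested, 11.6% were lower and 6.99% higher. Esam, a junction protein of endothelium and platelets, was lower by 0.69 log2 units (-0.69 ± 0.16, adjusted p 0.0236 in limma). The other call, Ptgir, the prostacyclin receptor (adjusted p 0.0350), rests on signals not well above background on any oxaliplatin array. Its control mean of -1.32 lay below the background bound of -1.17, so no fold is given. P2ry12, the ADP receptor that clopidogrel blocks and that is also known from microglia, rose by 0.81 ± 0.20 (adjusted p 0.0278). Gp5, which joins the complex of Gp1bb and Gp9, read 1.83, -0.61, -0.59 and 0.63 in controls 1 to 4 and -0.53, 0.19, -0.41 and -0.67 after oxaliplatin. Control 1 was the highest here too, and the difference of -0.67 ± 0.53 did not pass (adjusted p 0.389). Clec1b, the podoplanin receptor, was bright in every liver and differed by -0.35 ± 0.36 (adjusted p 0.514). Gp1ba, the ligand-binding part of the same complex, was not tested, with 1 and 2 control arrays well above background for its 2 probes. The count of lower genes was 0 without control 3, oxaliplatin 1 or oxaliplatin 2 and 1 without control 4, oxaliplatin 3 or oxaliplatin 4, and P2ry12 lost its call without control 2, control 3 or oxaliplatin 1, 2 or 4.

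Of 18 tested genes for granule cargo and secretion, 5 were lower and 1 higher, with a median of -0.14. Over all genes tested, 11.6% were lower and 6.99% higher. The 5 fell to 3 without oxaliplatin 1, to 2 without control 1, to 1 without control 3, oxaliplatin 2 or oxaliplatin 4, and to 0 without oxaliplatin 3. None was lower on the shared run name, with run name as a term or with a replicate block, and 12 were with centring on the median of all probes. Those lower were Vipas39, Cd63, Vamp8, Vwf and Stxbp2, at -0.42, -0.47, -0.43, -0.46 and -0.56. They encode a partner in alpha granule formation, a tetraspanin of dense granules, a vesicle SNARE, von Willebrand factor and a syntaxin-binding protein, and none is limited to platelets. For Vwf the adjusted p was 0.0387 in limma, and a second probe gave a difference of 0.06. Serpine2, a protease inhibitor, was 1.68 ± 0.43 higher (adjusted p 0.0320), a call lost without any 1 control or without oxaliplatin 3 or 4. Thbs1, the granule protein thrombospondin, did not pass, at -1.22 ± 0.48 (adjusted p 0.106), with 1.69 in control 1 and -0.76 to 0.33 in the other controls.

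Of 19 tested platelet signalling and cytoskeleton genes 2 were lower and 2 higher, with a median of 0.17 that turned negative with normexp and with centring on the median of all probes. The shares over all genes tested were 11.6% lower and 6.99% higher. Alox12, the platelet 12-lipoxygenase, was lower by the size seen in the members, at -1.79 ± 0.37 (adjusted p 0.0178 in limma). Myl9, a myosin light chain also found in smooth muscle, fell by 0.39 log2 units (adjusted p 0.0425). Syk, the kinase below the collagen receptor and in macrophages, was 1.04 higher (adjusted p 0.0108). Plek, or pleckstrin, was 0.54 higher (adjusted p 0.0126), but another of its probes gave -0.58. Tubb1, the beta tubulin of platelets, was not tested, since its probe was well above background on control 1 alone. Of the 2 lower genes 1 was left without control 1, control 4 or any 1 oxaliplatin array, and 0 without control 3.

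Of 11 tested megakaryocyte transcription factors 9 did not pass, 1 was lower and 1 higher, with a median of -0.20. Among all genes tested 11.6% were lower and 6.99% higher. The higher gene was Lyl1 (0.82, adjusted p 0.0475 in limma), a call lost without control 1, 2 or 3 or oxaliplatin 1, 2 or 4. The lower count was 3 without oxaliplatin 2 and 0 without oxaliplatin 3. Nfe2, needed for platelet release, read 1.31, 2.53, 1.16 and 2.18 in controls 1 to 4 and 0.04, 1.48, -0.04 and 0.40 after oxaliplatin. Its difference of -1.33 ± 0.42 missed the threshold (adjusted p 0.0575), with oxaliplatin 2 above controls 1 and 3. Gata1 was not well above background on any array with either probe. In the thrombopoietin axis 1 of 10 tested genes was called (median -0.16), Thpo itself, the hormone the liver makes to drive megakaryocytes. Thpo differed by -0.57 ± 0.15 (adjusted p 0.0385), while its 3 tested probes ranged from -0.57 to 0.89. Its call was lost when any array other than control 2 was left out.

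Further lists held relatives and partners of the members. As for the lists above, 11.6% of all genes tested were lower and 6.99% higher. Of 9 tested partners, Itgb6 fell by 2.55 log2 units (SE 0.57, adjusted p 0.0210 in limma) and was well above background on 2 of 4 oxaliplatin arrays, and Fgg, a fibrinogen chain made by hepatocytes, was 0.30 higher (adjusted p 0.0409). Itgb6 lost its call without control 3 or oxaliplatin 2, 3 or 4, and Fgg when any 1 array was left out. The median of the partners was -0.08, and 0.03 with the percentile over detected probes. Among paralogs and genomic neighbours, such as Cxcl1 and Cxcl2 beside Pf4 and Ppbp, none of 6 tested genes was called in limma, 0 also at an unadjusted p under 0.05 (median -0.15). Centring on the median of all probes, which moves nearly all genes down, raised the lower counts to 7 for the receptors, 8 for signalling, 8 for the transcription factors, 6 for the thrombopoietin axis, 6 for the partners and 2 for the neighbours.

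**Figure D5:**
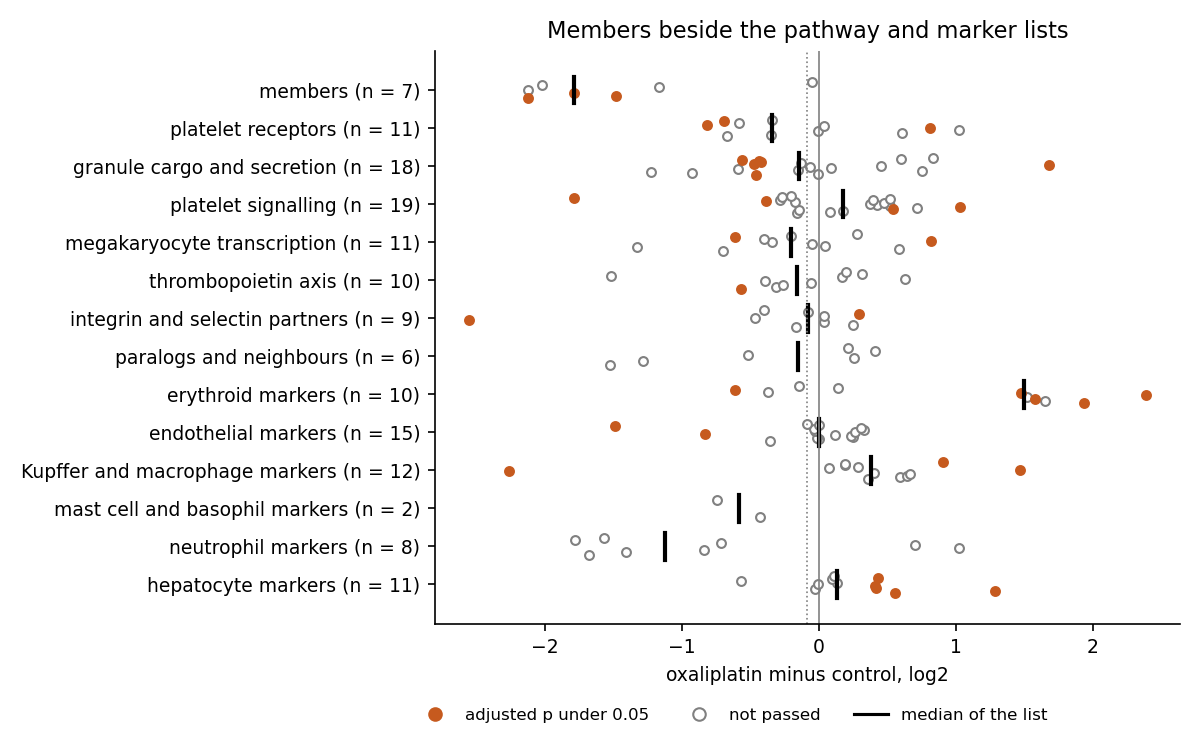
Difference between oxaliplatin and control (horizontal axis, log2) for each tested gene of the members and of 13 pathway and marker lists, filled where the adjusted p in limma was under 0.05, with a bar at each list's median. The median of the members lies at -1.78, that of the erythroid markers at 1.50 and that of the platelet receptor list at -0.34.

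Markers of other cells were measured alongside. Each count below stands beside 11.6% lower and 6.99% higher over all genes tested. Of 10 tested erythroid markers 4 were higher, among them Alas2 (2.39), Hbb-bs (1.94) and Hba-a1 (1.58), and Klf1 was lower (-0.61), with a list median of 1.50. The higher count was 2 without control 3 or oxaliplatin 2 and 1 without oxaliplatin 3. Their summed level, in units of each array's 75th percentile, ranged from 725 to 3679 in controls and from 2944 to 5846 after oxaliplatin. Globin genes of each pair are near copies whose probes may not separate them. Neutrophil markers gave no call in limma among 8 tested, 0 also at an unadjusted p under 0.05 and 1 lower without oxaliplatin 2, with a median of -1.12 and summed levels of 162 to 413 in controls and 37.6 to 327 after oxaliplatin. Endothelial markers summed to 477 to 560 and 433 to 548, with Cd34 (-0.83) and Lyve1 (-1.49) lower among 15 and a median near 0 (0.09 with quantile normalization). Among 12 macrophage markers Csf1r (1.47) and Lyz2 (0.91) were higher and Marco (-2.26) lower, with sums of 1027 to 1970 and 1114 to 2311 and a median of 0.38, or -0.25 with centring on the median of all probes. Marco lost its call when any array other than oxaliplatin 2 was left out, and 1 of the 2 higher genes was left without any 1 control or without oxaliplatin 3 or 4. Of 9 mast cell and basophil markers 2 could be tested and neither passed in limma, 0 also at an unadjusted p under 0.05 (sums 16.7 to 32.5 and 11.9 to 15.8, median -0.59), and Mcpt8, Mcpt4, Cpa3, Fcer1a, Ms4a2 and Cma1 were not well above background on any array. Hepatocyte markers were higher for Alb, Ttr, Apoa2, Serpina1c and Cyp2e1 among 11, by 0.41 to 1.29, with 1 left without oxaliplatin 3 and 2 without oxaliplatin 4. Their sums were 12242 to 12758 and 14195 to 15844, with a median of 0.13 that turned negative with quantile normalization, the series matrix and the median of all probes. The part of these markers in the member values was not tested.

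The genes most like the members were found by correlation, over the 8 arrays, with the mean of the standardised levels of the 7 tested members. Slc7a6os led with r = 0.98, followed by Zfp781 at 0.96 and Thbs1, Pif1, Lncpint and Vamp2 at 0.95. After each group's mean was removed these were 0.95, 0.94, 0.92, 0.84, 0.92 and 0.90. Of these 6, Zfp781 (-0.52), Pif1 (-0.93) and Lncpint (-0.63) were called lower in limma. Slc7a6os differed by -0.27 (adjusted p 0.107), with a second probe at 0.11, and Vamp2 by -0.44 (adjusted p 0.0661). The 6 genes were the highest of all genes compared over 8 arrays, so high coefficients are what the selection returns.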

How the data were processed

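Liver total RNA of 8 mice was measured on 8 Agilent arrays. Per the file headers, scans were extracted with Feature Extraction 12.0.3.1 on annotation mm9, while the submitters' processing notes list limma and Agilent Feature Extraction 10.7. The deposited processed signal is an intensity, background-subtracted and detrended within the array, per the file headers. Deposited flags of 0 or 1 mark spots well above background. The deposited series matrix holds log2 values whose normalization between arrays is not stated.

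Log2 processed signals were expressed relative to the 75th percentile of the 149782 non-control probes of the array, and outlier spots were left out. Probes well above background on at least 4 of 8 arrays were kept (54636), and the brightest probe stood for each of 13913 genes. The test was limma 3.58.1 (lmFit, eBayes) under R 4.3.3, with Benjamini-Hochberg adjustment over all genes and a threshold of 0.05, after the fit was tested on simulated data. Tables and plots used pandas 2.3.3, numpy 2.4.6 and matplotlib 3.10.9 under Python 3.11.15. Of 48257 probes with a RefSeq accession, 47985 were named through the RefSeq table of GRCm38.p6, used for names, and 147 further catalogue probes were named as the files name them.

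A gene not well above background on any array of its lower group has an at least N-fold value, the other group's mean over the mean, per array, of either its own signal or the array's dimmest signal well above background, whichever was higher, given where it exceeds 1. Named were all members, in each list every called gene up to 6, Gp1ba, Gp5, Clec1b, Thpo, Gata1, Nfe2, Vwf and Tubb1, and the 6 genes most correlated with the members. Some genes that this rule names are not reported here. Cxcl1, Cxcl2 and the dim mast cell markers were added to the named genes with their values known. The members and lists were chosen with earlier results of these data known. The replicate numbers did not pair the samples, since same-numbered deviations correlated at -0.32, -0.08, -0.09 and -0.23. Alternatives covered the background correction, scaling, source of values, filter, variance model, choice of probe, each array left out, run name and a replicate block.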

Additional observations from a re-analysis of the deposited data

Results flagged for a closer look

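No member probe had an array standing far from the others of its group. Among the other named genes, 8 such values arose in 122 groups of 4 arrays examined, members included, where chance gives about 1 in 20. Klf1, an erythroid transcription factor, was set apart in control 2 at 3.74 and in oxaliplatin 3 at 3.14. Thbs1, a granule protein whose profile resembled the members, had oxaliplatin 4 at -0.88, above the 3 other oxaliplatin arrays. Hepatocyte genes made up the rest, with Alb in oxaliplatin 4 at 11.30, Apoa2 in control 4 at 10.38, Serpina1c in control 4 at 11.00, Ttr in oxaliplatin 1 at 6.51 and the fibrinogen chain Fgg in control 3 at 10.87. All are log2 levels relative to the 75th percentile of the array.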

How the results depend on the processing

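Of the 3 members called lower, Itgb3 kept its call under all 23 alternatives, Pf4 under 15 of 23 and Itga2b under 9 of 22, and no member was called higher under any of them. Members called lower numbered 7 with each array centred on the median of all probes and 1 to 3 with 1 array left out. They numbered 1 on the shared run name, with the run name as a covariate and with a replicate block by label number. The count was 4 with every probe a feature. It was also 4 with no filter and with at least 1 array above background, Gp1bb included in both. With the median of the kept probes or the percentile over detected probes it was 2. No control array correlated best with the oxaliplatin array of its own number. Selp turned positive with the median of the kept probes (0.0046, a setting chosen after seeing the data), the percentile over detected probes (0.062), the shared run name (0.053), the run name as a covariate (0.053), and without control 1, control 4 or oxaliplatin 1 (0.02 to 0.16). Centring on the median of all probes shifted the all-gene median by -0.63 and turned Alb (-0.070), Apoa2 (-0.21), Cyp2e1 (-0.20), Fgg (-0.33), Plek (-0.083) and Serpina1c (-0.22) negative; the mean over probes turned Plek to -0.042. The percentile over detected probes moved it by 0.11 and no filter by 0.18. Calls over all genes, 2590 as reported, were 515 on the shared run name, 529 with the replicate block, 920 with the run covariate, 1015 to 2335 with 1 array left out, 4114 with no filter, 9917 with the median of all probes and 10065 over probes. The share of calls that were higher, 37.6% as reported, was 20.8% with normexp, 2.3% with the median of all probes, 47.7% with that of the kept probes, 49.3% with the series matrix, level with quantile normalization (1123 each way), 60.5% with the percentile over detected probes and 67.6% with no filter. Of 33 called list genes, 8 kept the call with each array left out and 25 lost it at least once, Fgg every time. The causes were not tested. Signal over background limits Gp1bb, Gp6, Treml1 and Itga2b.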
